A study of Chlamydomonas reinhardtii with 9 samples.

Results

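The N sufficiency list holds genes that earlier bulk RNA-seq found to be strongly repressed when Chlamydomonas reinhardtii, a unicellular green alga, runs out of nitrogen (N). It was compiled from cultures other than these, and it names 200 genes. Of these, 159 were among the 17893 genes of the deposited matrices. RBD2 and 12 genes that also stand on another list of the study were taken out, which left 146 members. The members described here are 53 genes of the cilium, 13 genes of the chloroplast and light harvesting, 8 of the extracellular matrix, 6 of hydrogenase and anoxia, 5 of transport, 15 other genes with a symbol and 46 without one. The 41 list genes outside the matrices all lack a symbol.

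The data are 9 Chromium single-cell 3′ libraries from batch cultures grown in acetate medium under constant light. Strain CC-5390 (cw15 arg7-8::ARG7 MT+) has no cell wall, and strain CC-4532 (CW MT-) has one. The N− cultures lacked nitrogen but had full iron, the Fe− cultures lacked iron but had full N, and the Fe+ cultures had both. Cells had been resuspended in these media the day before loading. In experiment 1, CC-5390 was profiled as Fe−, as an equal mixture of Fe− and Fe+ cells (Mix), and as Fe+. In experiment 2, CC-5390 was profiled as N− R1, N− R2, Fe− and Fe+, and CC-4532 as Fe− and Fe+. Per the study, the experiments also differed in pre-culture schedule, sequencer and sequencing depth. The study calls N− R1 and N− R2 technical duplicates, so they were summed and counted as 1 sample in tests. As this strain was grown in 4 flasks, separate N− cultures and 1 split culture cannot be told apart.

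The libraries held 2064 to 11798 cells and 7576775 to 52436795 unique molecular identifiers (UMIs), each standing for 1 captured transcript. The N− libraries had the fewest UMIs. Levels are UMIs per 1000000 UMIs of the library (CPM), so they are shares of what was captured and not amounts per cell. Pairs of libraries shared at most 40 cell barcodes, or 0.436% of the smaller library. The cultures are unicellular, so no cell type was named. The 118 genes of the N deficiency list in the matrices summed to 16440 and 15280 CPM in N− R1 and R2, against 1595 and 2189 CPM in Fe+ of experiments 1 and 2. Median UMIs per cell were 1388 and 2578 in N− R1 and R2, against 2317 and 2197 in Fe+, and the part of this difference in the results was not tested.

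When N is withheld, Chlamydomonas stops dividing, takes apart much of its photosynthetic machinery to recycle N, and stores carbon as starch and oil. Starved cells can also turn into gametes, which use their cilia to adhere. A motile cilium is built on microtubule doublets, which carry dynein motors and radial spokes and are maintained by intraflagellar transport. Chlamydomonas is also known for an oxygen-sensitive hydrogenase in the chloroplast, which works when cultures run out of oxygen.

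The members did not all have lower levels in N− cells. For its full list, the study reports a very low score in N− cells. That score is the mean expression of the list in a cell less that of randomly drawn control genes. The gene-by-gene changes of library sums given here are another measure. The full list also holds genes of light-harvesting complex proteins, which are not among the members. In a fit of N−, Fe− and Fe+ libraries of CC-5390 with a common spread, 43 of the 143 members tested fell in N− and 17 rose relative to Fe+. Over all 15431 genes tested, 16.1% fell and 13.6% rose. The members' median log2 fold change was -0.84, beside -0.11 for all genes tested. These are edgeR calls at an adjusted p under 0.05, and the single N− sample was assumed to vary like the Fe− and Fe+ libraries. With the experiment as a term, the fit left very few residual degrees of freedom. Its p-values therefore rest mostly on spread pooled over genes and not on each gene's own replicates. DESeq2, a second tool, was run on N− with the experiment term as well. Without the experiment as a term, 24 members fell and 9 rose, beside 6.44% and 6.49% of all genes. DESeq2 called 39 lower and 16 higher, beside 9.41% and 9.77% of all genes.

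**Figure D1:**
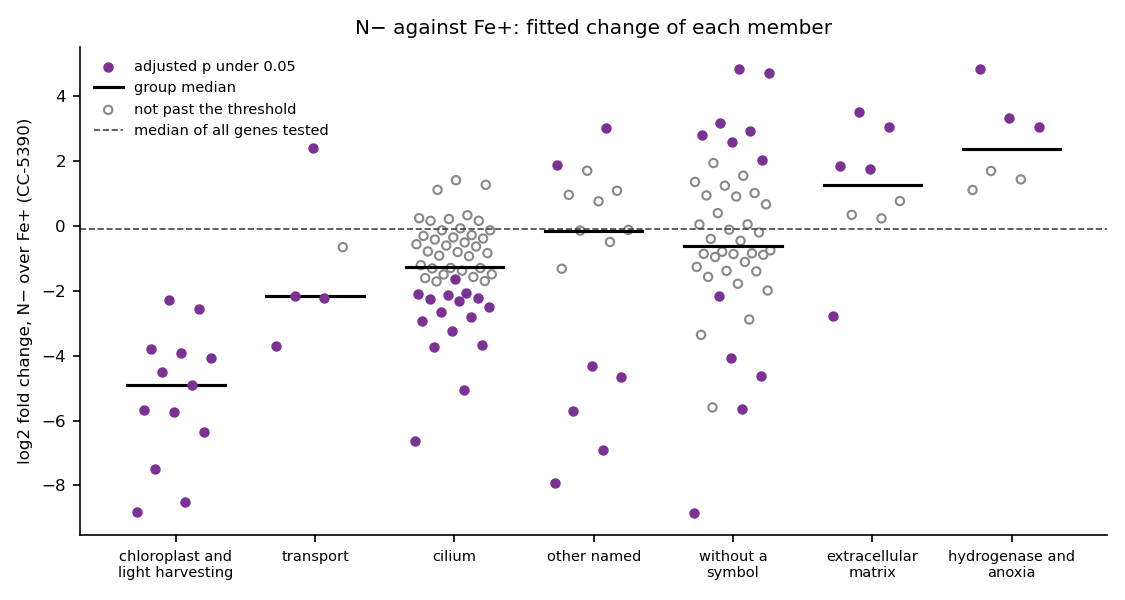
Fitted log2 fold change of N− over Fe+ in CC-5390 (vertical axis) for the 143 members tested, by group. Filled points passed an adjusted p of 0.05, bars are group medians and the dashed line is the median of all genes. All 13 chloroplast members lie at -2.27 or lower, all 6 hydrogenase and anoxia members lie above 0, and the ciliary members spread from -6.62 to 1.41.

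The direction of many members depends on how libraries are scaled. By CPM, the median of all genes was 0.95 higher in N− than in Fe+ of experiment 2 on the log2 scale. By that unadjusted measure, 42 of 141 members with at least 20 UMIs were at least 2-fold lower in N− (15.7% of all genes) and 50 were at least 2-fold higher (48.9%). Relative to the all-gene median, 66 members were at least 2-fold lower (30.5% of all genes) and 37 at least 2-fold higher (30.4%). In the same libraries, 66 members were lower in N− and 50 higher both by CPM and relative to the all-gene median, while 25 were higher by CPM and below that median. Of those 25, 12 are ciliary and 1 is of the extracellular matrix, whereas no chloroplast or hydrogenase member changed direction. These counts carry no test.

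All 13 members of the chloroplast and light-harvesting group fell in N−, with log2 fold changes of -2.27 to -8.83. In the same fit, 16.1% of all genes fell. PCY1 encodes plastocyanin, the copper protein that carries electrons from cytochrome f to photosystem I. It lies on chromosome 3 from 5197561 to 5198678 in the v5.5 assembly. PCY1 stood at 16.5 and 15.0 CPM in N− R1 and R2. Its level was 2779 and 938 CPM in Fe− of experiments 1 and 2, and 7692 and 2741 CPM in Fe+. No N− value came near those of the other CC-5390 libraries, and the log2 fold change of N− over Fe+ was -8.50 ± 0.70 (SE). PCY1 supplied 0.268% and 0.239% of the members' UMIs in N− R1 and R2, against 50.9% and 45.0% in Fe+. The summed CPM of all members was 6163 and 6293 in N− R1 and R2, against 15110 and 6094 in Fe+ of experiments 1 and 2. Relative to Fe+ of experiment 2, that sum did not fall with PCY1.

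NAB1 (chromosome 6, 2438365 to 2442450) encodes an RNA-binding protein that holds back translation of light-harvesting mRNAs in the cytosol. It had 6.86 and 7.95 CPM in N− R1 and R2, 96.3 and 35.1 CPM in Fe− of experiments 1 and 2, and 545 and 328 CPM in Fe+. Fe− lay between without overlap, and the change of N− over Fe+ was -6.35 ± 0.87 (SE). PSB27, an assembly factor of photosystem II, had 4.75 and 3.60 CPM in N−, against 287 and 109 CPM in Fe+. FKB16-2, an immunophilin, was counted at 0.660 and 0.763 CPM in N− and at 140 and 62.3 CPM in Fe+. CPLD31 and CPLD30 belong to genes conserved in plants and diatoms. CPLD31 had 0 and 1 UMI in N− R1 and R2, where 0 UMIs allow up to 0.396 CPM, against 24.1 and 15.3 CPM in Fe+. Summed over both N− libraries, the ratio of CPLD31 to Fe+ of experiment 2 was 0.00391, with a counting interval of 9.887e-05 to 0.0219. CPLD30 had 3.04 and 4.58 CPM in N−, against 222 and 103 CPM in Fe+. TEF14, found in thylakoid-enriched fractions, had 17.8 and 18.2 CPM in N− and 461 and 243 CPM in Fe+. The smallest changes of the group were those of CYN38, a cyclophilin of the thylakoid lumen, at -2.27 ± 0.77, and of PBGD2, a porphobilinogen deaminase, at -2.57 ± 0.83 (SE). Between these and PCY1 stand CGL86, CPLD48, TIC62 and CPLD61, whose changes ran from -4.49 to -3.79. Without the experiment term, 10 of the 13 passed the test.

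**Figure D2:**
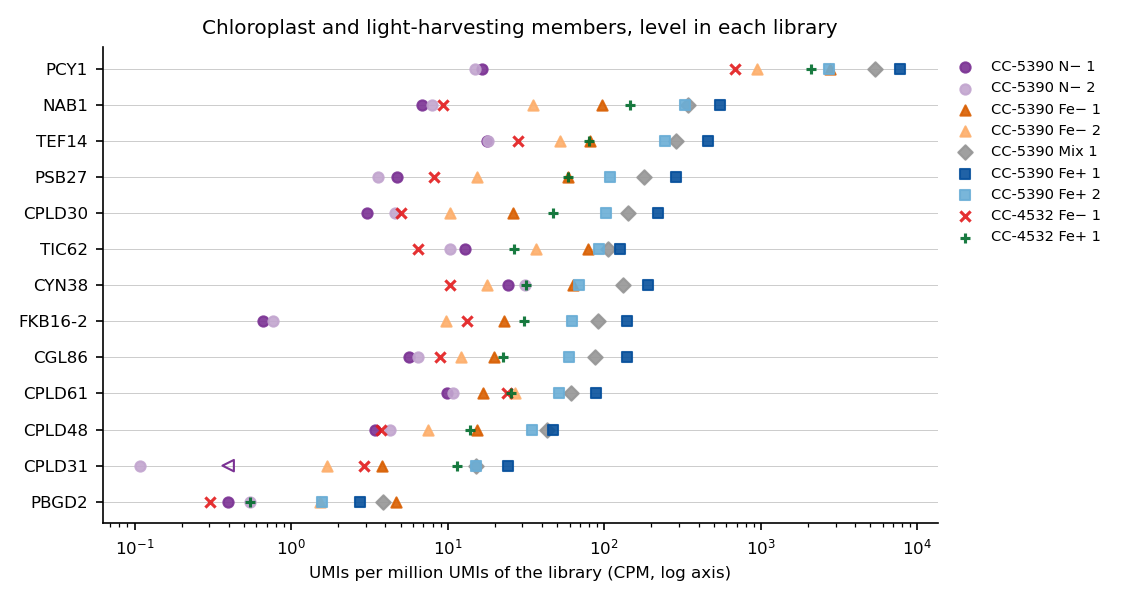
Level of the 13 chloroplast and light-harvesting members (rows) in each of the 9 libraries, in CPM on a log axis. The N− points are the lowest of the CC-5390 libraries for all genes but CYN38, as with 16.5 and 15.0 CPM for PCY1, and the open triangle for CPLD31 marks the 0.396 CPM that 3 counts allow in N− R1, where none was counted.

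The hydrogenase and anoxia members ran the other way from the list's name, and all 6 were higher in N− by both scalings. ADH5, an alcohol dehydrogenase on chromosome 3 (7211786 to 7215173), stood at 832 CPM in both N− libraries, 18.1 and 104 CPM in Fe− of experiments 1 and 2, and 72.3 and 10.9 CPM in Fe+. The N− values exceeded those of all other CC-5390 libraries. ADH5 rose by 3.32 ± 0.90 (SE; edgeR adjusted p = 0.00191), but the call is lost without the experiment term (adjusted p = 0.0575).

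HCP1 and HCP4 encode hybrid cluster proteins, iron-sulfur proteins that accumulate in anoxia. HCP1 had 28.1 and 31.1 CPM in N−, against 0.0312 and 0.585 CPM in Fe+, which rest on 1 and 22 UMIs. It rose by 4.83 ± 0.69 (SE). HCP4 had 16.4 and 23.5 CPM in N−, against 0.343 and 1.43 CPM in Fe+, and rose by 3.04 ± 0.62 (SE). Both stayed under 1 CPM in Fe− of CC-5390.

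HYDA1, the [FeFe] hydrogenase, had 221 and 245 CPM in N−, against 30.4 and 25.9 CPM in Fe+. Its maturation factors were similar in pattern: HYDG1 had 194 and 209 CPM in N− and 32.7 and 28.2 CPM in Fe+, and HYDEF1 had 65.7 and 66.8 CPM in N− and 8.70 and 8.08 CPM in Fe+. None of these groups of values overlapped, yet the fitted changes of 1.69 ± 0.75, 1.11 ± 0.78 and 1.43 ± 0.76 (SE) did not pass the test (edgeR adjusted p = 0.0714, 0.282 and 0.139). HYDG1 and HYDEF1 are neighbours on chromosome 6, with 116 bases between them.

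Of the 8 extracellular matrix members, 4 rose in N− and 1 fell, beside 13.6% and 16.1% of all genes. MMP29, a matrix metalloproteinase on chromosome 13 (4800766 to 4806621), had 464 and 431 CPM in N−, 85.0 and 215 CPM in Fe−, and 23.4 and 18.1 CPM in Fe+. The 3 conditions did not overlap, and the change of N− over Fe+ was 3.05 ± 0.72 (SE; edgeR adjusted p = 0.000362). In the fit with no experiment term, the call was lost when Fe+ of experiment 1 or of experiment 2 was left out (edgeR adjusted p = 0.0982 and 0.0528). The prolyl 4-hydroxylases modify proline-rich wall proteins, and 2 of the 3 here rose. PFH13 had 72.7 and 75.2 CPM in N− against 6.05 and 0.798 CPM in Fe+, and PFH10 had 71.4 and 74.9 CPM against 19.6 and 8.69 CPM. PFH9, the gene next to PFH10 on chromosome 2, had 49.1 and 36.2 CPM in N− and 12.8 and 7.74 CPM in Fe+, without passing the test.

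Pherophorins are hydroxyproline-rich glycoproteins of the matrix, and the pair on the list moved in opposite directions. PHC71 rose to 35.9 and 39.7 CPM in N−, against 16.4 and 6.91 CPM in Fe+, although N− R2 alone or DESeq2 did not give the call (adjusted p = 0.0629 and 0.0544). PHC5 fell to 12.8 and 17.9 CPM in N−, against 62.0 and 52.0 CPM in Fe+. Without the experiment term, neither PHC5, PHC71 nor PFH10 passed the test, and PFH10 was also lost with N− R2 alone. VSP3, a serine- and proline-rich wall protein, had 188 and 233 CPM in N− and 101 and 117 CPM in Fe+. MMP4, the other metalloproteinase, had 5.67 and 4.36 CPM in N− and 2.06 and 1.57 CPM in Fe+, and neither VSP3 nor MMP4 was called.

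**Figure D3:**
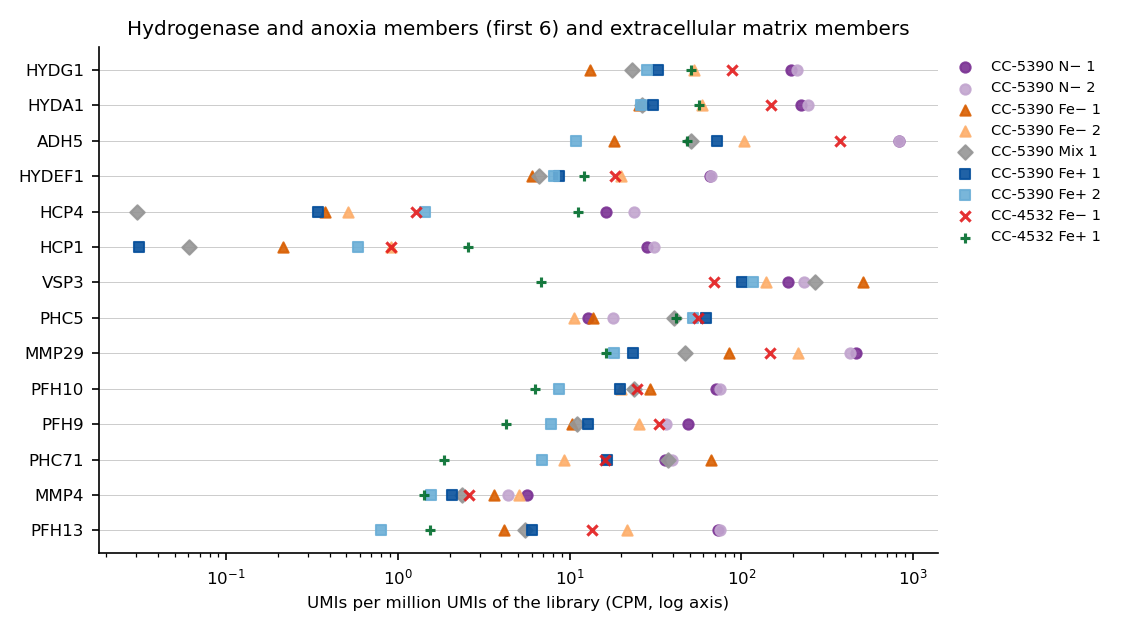
Level of the 6 hydrogenase and anoxia members (upper rows) and the 8 extracellular matrix members (lower rows) in each of the 9 libraries, in CPM on a log axis. N− points lie to the right of both CC-5390 Fe+ points in every row except PHC5, as with 832 CPM against 72.3 and 10.9 CPM for ADH5.

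The 53 ciliary members were split. Of the 52 tested in the fit, 16 fell in N− and none rose, beside 16.1% and 13.6% of all genes. The median change was -1.25. At an unadjusted p under 0.05 there were 26 ciliary members, in a fit where 40.5% of all genes had such a p. DESeq2 called 13 lower and 0 higher, beside 9.41% and 9.77% of all genes. Only 4 ciliary members fell without the experiment term, a share near the 6.44% of all genes. The summed CPM of the group was nevertheless much the same, at 545 and 499.8 in N− R1 and R2, against 556 and 519 in Fe+. FAP154, a flagella-associated protein (FAP), was the farthest down. It had 0.396 and 1.85 CPM in N−, from 3 and 17 UMIs, 70.6 and 34.6 CPM in Fe−, and 58.1 and 69.0 CPM in Fe+. The change of N− over Fe+ was -6.62 ± 0.99 (SE), and FAP154 also fell relative to Fe− by 6.15 on the log2 scale. FAP34 followed, with 0.396 and 0.654 CPM in N− against 7.86 and 9.04 CPM in Fe+. Among ciliary genes with a known place, FAP20 is of the inner junction of the doublet and IFT172 of the intraflagellar transport complex. Both fell in the fit with the experiment term, with changes of -2.31 ± 0.74 and -2.05 ± 0.72 (SE). FAP20 had 7.39 and 5.45 CPM in N− against 27.1 and 18.7 CPM in Fe+, and IFT172 had 8.45 and 7.95 CPM against 11.2 and 21.0 CPM.

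None of the 7 radial spoke members (RSP2, RSP5, RSP6, RSP9, RSP16, RSP17 and RSP23) passed the test, and their fitted changes ran from -1.50 to -0.08. RSP9 had 15.1 and 13.6 CPM in N−, against 32.1 and 24.0 CPM in Fe+. RSP2 had 26.0 and 23.3 CPM in N−, against 5.49 and 10.9 CPM in Fe+, and its fitted change of -0.08 ± 0.71 (SE) turned positive in 7 alternatives. RSP5, RSP16 and RSP23 differed between N− and Fe+ by less than 2-fold in CPM. RSP6 passed the test with N− R2 alone, with a change of -1.86 (edgeR adjusted p = 0.029).

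Against Fe+ of experiment 2 by CPM, 10 of 52 ciliary members were at least 2-fold higher in N− (48.9% of all genes). Another 15 were at least 2-fold lower (15.7% of all genes). Relative to the all-gene median, 3 were at least 2-fold higher (30.4%) and 30 at least 2-fold lower (30.5%). A few ciliary members had their highest CC-5390 levels in N−. FAP182 and FAP276, proteins inside the doublet, had 44.2 and 39.7 CPM and 47.6 and 45.2 CPM in N− R1 and R2. In Fe+ they stood at 4.77 and 6.72 CPM and at 13.8 and 8.13 CPM. FAP175 had 25.9 and 28.6 CPM in N−, against 1.22 and 6.96 CPM in Fe+. The fitted changes of these genes were 1.41 ± 0.68, 1.27 ± 0.71 and 1.11 ± 0.61 (SE), and none passed the test.

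Counted cell by cell, the ciliary transcripts were spread thinly. After drawing 1000 UMIs from each cell and leaving out shallower cells, a cell carried on average 0.511 and 0.458 ciliary UMIs in N− R1 and R2, against 0.589 and 0.555 in Fe+ of experiments 1 and 2. This left out 1158 and 335 N− cells and 124 and 357 Fe+ cells. At least 1 ciliary UMI was found in 37.4% of N− R1 cells and 33.5% of N− R2 cells, against 38.3% and 39.0% in Fe+. Unthinned, the shares were 52.9% and 60.5% in N− and 63.8% and 64.0% in Fe+. No cell type here lacks cilia genes by definition, so the level that free RNA gives was not measured.

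The variance of ciliary UMIs per cell was 1.19 and 1.24 times the mean in N− R1 and R2, 1.84 and 1.23 times in Fe− of experiments 1 and 2, and 1.58 and 1.31 times in Fe+. It was largest in CC-4532 Fe+, at 1.91, where 1.36% of cells had 5 or more ciliary UMIs. In contrast, chloroplast members reached 8.08% and 8.10% of thinned N− cells, against 99.98% and 96.4% of Fe+ cells. The hydrogenase and anoxia members showed the reverse, with 61.5% and 56.8% of N− cells against 13.1% and 7.40% of Fe+ cells.

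**Figure D4:**
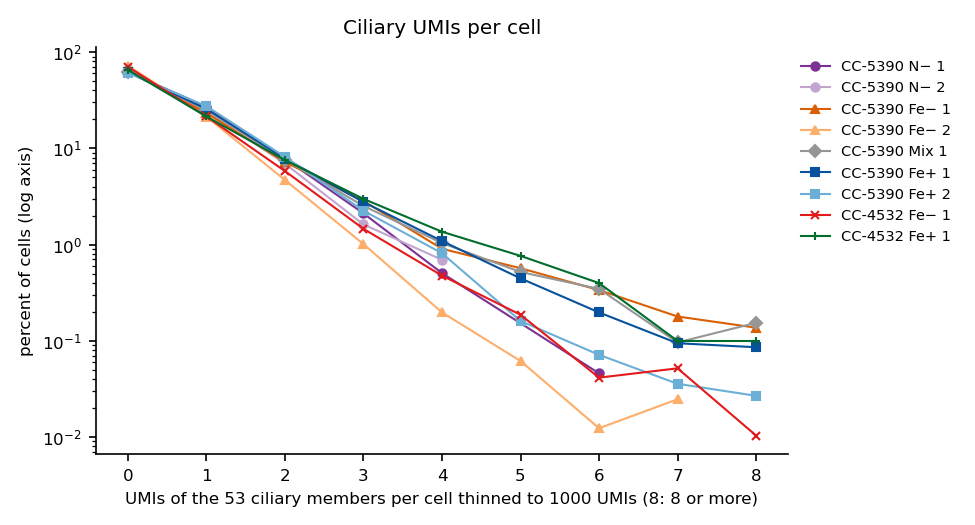
Percent of cells (log axis) by the number of UMIs of the 53 ciliary members in a cell thinned to 1000 UMIs, for each library; numbers that no cell reached are not drawn. The share of cells with at least 1 ranged from 27.4% in Fe− of experiment 2 to 39.0% in Fe+ of experiment 2, and the N− curves end at 6 UMIs or fewer.

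The 5 transport members included 3 that fell in N− and 1 that rose, beside 16.1% and 13.6% of all genes. VDAC1, an anion channel of the outer mitochondrial membrane, fell to 20.3 and 33.3 CPM, against 304 and 179 CPM in Fe+. MCP28, a mitochondrial carrier, had 42.4 and 84.5 CPM in N− and 293 and 151 CPM in Fe+. ZIP1, of the zinc transporter family, had 1.32 and 1.42 CPM in N− and 4.36 and 3.11 CPM in Fe+. CTR3, of the copper transporter family, rose to 45.7 and 68.5 CPM, against 21.6 and 3.48 CPM in Fe+. PTA3, the remaining member, had 52.7 and 55.3 CPM in N− and 102 and 39.2 CPM in Fe+, which overlap. With no experiment term, 1 transport member, VDAC1, fell and none rose, and the VDAC1 call was lost when Fe+ of experiment 1 or Fe− of experiment 2 was left out as well (edgeR adjusted p = 0.0739 and 0.0577).

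Among the 15 other genes with a symbol, 5 fell and 2 rose, beside 16.1% and 13.6% of all genes. YGG2 had 0.528 and 0.218 CPM in N− R1 and R2, from 4 and 2 UMIs, against 114 and 43.0 CPM in Fe+. PCD3 had 1 UMI in each N− library and 15.4 and 7.42 CPM in Fe+. LCI26, CYN26 and TSP4 fell as well, with changes of -5.70 to -4.31. The genes that rose were CEP16, a cysteine endopeptidase, and PNO1. CEP16 stood at 83.2 and 95.6 CPM in N−, against 5.17 and 5.66 CPM in Fe+.

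Of the 46 members without a symbol, 44 were tested, 5 fell and 7 rose. These counts are near the shares of all genes, 16.1% and 13.6%. Among the lowest ratios was that of Cre16.g652000, with 1 UMI in each N− library, against 24.8 and 30.6 CPM in Fe+. Its ratio to Fe+ of experiment 2 was 0.00390, with a counting interval of 0.000472 to 0.0141 that overlaps that of CPLD31. The others that fell were Cre13.g562900, Cre07.g334150, Cre03.g163400 and Cre02.g107950. Cre07.g346950 had 67.6 and 90.8 CPM in N−, against 24.6 and 0.425 CPM in Fe+, so that the ratio between the Fe+ libraries was larger than that between the lower N− and the higher Fe+ value. Cre12.g542569 had 2.24 and 3.81 CPM in N−, from 52 UMIs. None was counted in Fe+ of experiment 2, which makes N− at least 38.9-fold higher there at a floor of 3 counts. Cre13.g572600, Cre03.g201500, Cre17.g697500 and Cre12.g507800 also rose, with changes of 2.58 to 3.18. Without the experiment term, Cre07.g346950 and Cre12.g507800 did not pass the test (adjusted p = 0.223 and 0.281). Cre10.g433950, among the 5 highest members in Fe+ of experiment 2, had 165 and 159 CPM in N− and 1082 and 202 CPM in Fe+, and it did not pass the test.

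The N− duplicates were close for most members. Of 121 members with at least 20 UMIs in both together, 4 were at least 2-fold higher (5.48% of all genes) and 2 at least 2-fold lower (0.531%) in R2 than in R1. Relative to the all-gene median, 3 were higher (2.27%) and 6 lower (1.29%). The Fe+ libraries of the 2 experiments differed more. Of 139 members, 36 were at least 2-fold higher (35.8% of all genes) and 7 at least 2-fold lower (5.73%) in experiment 1 than in experiment 2. Relative to the all-gene median, which was 0.66 higher in experiment 1, 15 were higher (14.7%) and 34 lower (15.3%).

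A second question is whether these genes differ between N starvation and iron starvation, the only other deficiency in these data. Set directly against Fe−, N− had 23 members lower and 8 higher of 143 tested, beside 7.89% and 3.45% of all genes. DESeq2 called 17 lower and 5 higher, beside 3.13% and 1.06% of all genes. Without the experiment term no member passed the test, nor did more than 0.013% of all genes in the lower and 0.0648% in the higher direction. The chloroplast group supplied 9 of the 23, among them PCY1 (-6.87 ± 0.65), FKB16-2 (-4.72 ± 0.93) and NAB1 (-3.37 ± 0.76, SE). ADH5, HCP1 and HCP4 were higher than in Fe−, by 2.82 ± 0.61, 3.86 ± 0.71 and 3.97 ± 0.69 (SE). No extracellular matrix member differed between N− and Fe− past the threshold, and of the ciliary members, FAP154, FAP34, FAP227 and FAP125 were lower and FAP152 was higher.

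In CC-5390, Fe− was set against Fe+ in both experiments. Without pairing the experiments, edgeR called 0 of 139 members tested, as it called 0% of all 14588 genes. At an unadjusted p under 0.05 there were 36 members, beside 12.2% of all genes, and DESeq2 called 16 lower (1.48% of all genes) and 2 higher (1.7%). With the experiment as a block, 23 members fell (3.87% of all genes) and 2 rose (4.32%). The block pairs cultures of the same pre-culture and also takes in the sequencer and depth of each experiment. Of the 23 that fell with the block, 10 are chloroplast members. NAB1 had 96.3 and 35.1 CPM in Fe− of experiments 1 and 2, against 545 and 328 CPM in Fe+, a change of -3.00 ± 0.44 (SE; edgeR adjusted p = 0.000225 with the block). PCY1 fell to 2779 and 938 CPM in Fe−, against 7692 and 2741 CPM in Fe+, by -1.65 ± 0.27 (SE; edgeR adjusted p = 0.000509 with the block).

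The largest decreases in Fe− were those of CPLD30, LCI26, CPLD31, Cre16.g661000 and Cre13.g562900, from -3.34 to -2.99 without the block. LCI26, named for its induction in low CO2, had 0.916 and 0.667 CPM in Fe− and 6.92 and 6.35 CPM in Fe+. With the block all of them passed the test. VDAC1 had 54.8 and 26.2 CPM in Fe−, against 304 and 179 CPM in Fe+, and PHC5 had 13.7 and 10.6 CPM against 62.0 and 52.0 CPM. Both fell with the block, as did FAP385 and FAP152 of the cilium. The members that rose with the block were MMP29, by 2.58 ± 0.56, and Cre16.g677650, by 2.34 ± 0.57 (SE). Among members with like signs in both experiments, the next increases without the block were those of Cre12.g541400, Cre02.g107950 and Cre01.g036100, and none of them passed the test with or without the block. No hydrogenase or anoxia member passed it in either fit, and the levels of ADH5 lay in opposite order in the experiments. It had 18.1 CPM in Fe− and 72.3 CPM in Fe+ of experiment 1, and 104 CPM in Fe− and 10.9 CPM in Fe+ of experiment 2.

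Taken as CPM ratios within each experiment, 37 of 137 members were at least 2-fold lower in Fe− of experiment 1 (8.98% of all genes) and 9 at least 2-fold higher (17.8%). In experiment 2, 60 of 142 were at least 2-fold lower (17.3%) and 31 at least 2-fold higher (22.1%). Relative to the all-gene medians the counts were 44 lower (12.4%) and 7 higher (13.2%) in experiment 1, and 62 lower (17.8%) and 31 higher (21.7%) in experiment 2. The ciliary group differed between the experiments, with medians of -0.29 and -1.20 relative to all genes.

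In the Mix library, 106 of 137 members with at least 20 UMIs had a level between those of Fe− and Fe+ of experiment 1. Of the 46 members at least 2-fold apart between Fe− and Fe+, all 46 lay between in the Mix. The Mix pooled cells of both cultures, so a level between them follows from the design and is no result about the members. PCY1 had 5396 CPM and NAB1 340.2 CPM there.

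The walled strain CC-4532 had 1 Fe− and 1 Fe+ library, so its ratios carry no test and their intervals cover counting error only. The study proposes that this strain only partly used up its iron stores, which was not tested here. By CPM, 39 of 140 members were at least 2-fold lower in Fe− (15.3% of all genes) and 34 at least 2-fold higher (34.4%). Relative to the all-gene median, which was 0.40 higher in Fe−, the counts were 50 lower (23.8%) and 28 higher (25.6%). All 13 chloroplast members were below the all-gene median. NAB1 had 9.29 CPM in Fe− and 147 CPM in Fe+ of this strain, and PCY1 had 686 and 2092 CPM. ADH5 stood at 375 CPM in Fe− and 48.4 CPM in Fe+, a ratio of 7.75 with an interval of 7.24 to 8.31. HCP1 and HCP4 were lower in Fe−, at 0.908 and 1.27 CPM, against 2.57 and 11.1 CPM in Fe+. VSP3 had 69.4 CPM in Fe− and 6.84 CPM in Fe+, and MMP29 had 147 and 16.4 CPM. PTA3, a transporter of the phosphate permease family, had 12.1 CPM in Fe− and 0.329 CPM, from 6 UMIs, in Fe+.

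**Figure D5:**
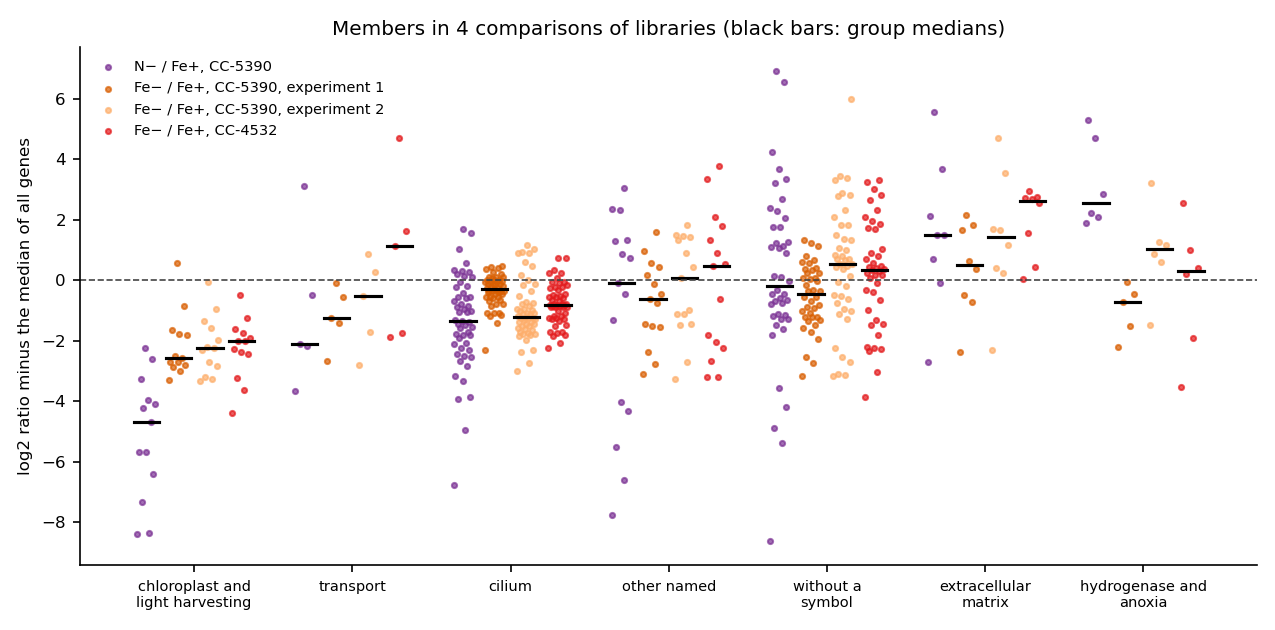
Log2 CPM ratio of each member minus the median of all genes (vertical axis), by group, for N− over Fe+ in CC-5390 and for Fe− over Fe+ in CC-5390 (experiments 1 and 2) and CC-4532; black bars are group medians. The chloroplast medians are -4.69, -2.57, -2.25 and -2.01 in this order, and the transport members have negative medians in the first 3 and a median of 1.15 in CC-4532.

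Between strains in experiment 2, CC-4532 had 36 of 139 members at least 2-fold lower than CC-5390 in Fe+ (43.5% of all genes) and 16 at least 2-fold higher (3.9%). In Fe−, 21 of 140 were at least 2-fold lower (35.5%) and 41 at least 2-fold higher (9.2%). The all-gene medians were -0.87 in Fe+ and -0.57 in Fe−. Relative to them, 10 members were at least 2-fold lower (10.8% of all genes) and 51 higher (13.2%) in Fe+, and 15 lower (18.8%) and 71 higher (19.7%) in Fe−. All 6 hydrogenase and anoxia members were above the all-gene median in both media. HYDA1 had 56.5 CPM in CC-4532 Fe+ and 25.9 CPM in CC-5390 Fe+, and 149 and 58.9 CPM in the Fe− libraries. Cre15.g638400 and PTA3 were nearly missing from CC-4532 Fe+, with 5 and 6 UMIs, against 1208 and 1474 UMIs in CC-5390 Fe+. Cre01.g045200 had 15.7 CPM in CC-4532 Fe+ and 0.479 CPM in CC-5390 Fe+. Only 1 library stands for each strain and medium, so strain and library cannot be told apart. The study saw no signs of lysis of CC-4532 in the kit's buffer and reports fewer genes from it than from CC-5390. In the deposited cells, median genes per cell were 512 in Fe+ and 367 in Fe− of CC-4532, against 454 and 729 in CC-5390 of experiment 2. The part of capture in these ratios was not tested.

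The members lie on all 17 chromosomes, with the most, 18, on chromosome 12. By the RefSeq annotation of the v5.5 assembly, 5 pairs of members are direct neighbours. Besides HYDG1 with HYDEF1 and PFH9 with PFH10, these are CPLD48 with PHC71 and PHC71 with FAP152 on chromosome 11, and FAP203 with HSP70H on chromosome 14, which overlap by 292 bases. Neighbours did not always move together. CPLD48 fell by 4.07 on the log2 scale in N− while PHC71, 2 bases away, rose by 1.75. With so little space between these genes, the counting of 3′ reads may not separate them, so their levels are less certain.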

How the data were processed

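Per the labels, the 9 libraries were made with the Chromium 3′ kit v3, while a remark in the study refers to an earlier version. The authors used cellranger count with the v5.5 genome. What they deposited are raw UMI counts for each gene in each cell. UMIs of all deposited cells were summed per gene and library, since cells are not replicates. Members were taken from the study's list and sorted by symbol. Members and lists were chosen with earlier results of these data known.

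edgeR 4.0.16 (TMM, filterByExpr, quasi-likelihood F test, Benjamini-Hochberg over all genes tested, threshold 0.05) was run in R 4.3.3 on Fe− and Fe+ of CC-5390, 2 against 2, and on 5 samples with the experiment as a term for N−. Both edgeR fits were tried on simulated counts, which had a smaller spread than these libraries and so measure no error rate here. The alternative tool was DESeq2 1.42.0, run with the experiment term for N− and, unless stated, without it for Fe− against Fe+. Paired cultures came from 1 pre-culture, and their deviations from group means had a correlation of 0.51 over 14588 genes. CPM ratios used at least 20 UMIs in both libraries together and a pseudocount of 0.5. Intervals are exact at 95% and, like the floor of 3 counts, cover counting error only. The SE of an edgeR change is its size divided by the square root of the F statistic, so it restates the p-value. Other steps used Python 3.11.15 (numpy 2.4.6, pandas 2.3.3, scipy 1.17.1, matplotlib 3.10.9).

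Genes were named by rule: the 10 lowest and 10 highest N− ratios, the 5 lowest and 5 highest Fe− changes of like sign in both experiments, the 5 highest levels in Fe+ of experiment 2, and all hydrogenase and anoxia, radial spoke and extracellular matrix members. Any other member named was chosen after its values were seen. Doublets were treated only by leaving out the deepest 5% of cells. Mating-type markers and other pathway neighbours could not be matched by symbol and were not analysed here. Positions are from RefSeq.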

Additional observations from a re-analysis of the deposited data

Results flagged for a closer look

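The median of the 5 transport members lay on opposite sides of the all-gene median in the strains. Relative to the all-gene median, the median change of Fe− over Fe+ on the log2 scale was 1.15 in CC-4532, against -1.25 and -0.51 in CC-5390 of experiments 1 and 2. PTA3, CTR3 and ZIP1 were higher in Fe− of CC-4532. By CPM, PTA3 was also higher in Fe− of CC-5390 in both experiments (109 and 48.1 CPM, against 102 and 39.2 CPM in Fe+) and CTR3 in experiment 2 (6.54 against 3.48 CPM), while VDAC1 and MCP28 were lower in Fe− in both strains. Each of these medians is the value of 1 gene, ZIP1 in CC-4532 and in experiment 2 of CC-5390, and CTR3 in experiment 1. In CC-4532, ZIP1 had 2.78 CPM in Fe− and 0.931 CPM in Fe+, the latter from 17 UMIs. The difference between strains was not tested, since CC-4532 has 1 library per medium, and the PTA3 ratio rests on 6 UMIs in CC-4532 Fe+.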

How the results depend on the processing

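Over the counts and values that answer a comparison, 94 of 149 alternatives stayed within 1.5 times of the reported value or within its error, and over single genes and medians 460 of 561 did not change direction or call. For Fe− against Fe+ without the replicate block, 0 genes passed the test. The block gave 1194 genes, with 23 members lower and 2 higher, DESeq2 gave 548 genes (16 and 2), DESeq2 with the block, chosen after seeing the data, 1179 genes (24 and 4), and no filter on low counts 48 genes with 1 member lower. Leaving out each library in turn gave 11 to 364 genes, 0 to 5 members lower and 0 to 1 higher. Every member called with the block was not called without it. Beside those named in the report as called with it, these are PSB27, FKB16-2, TEF14, CGL86, CPLD48, CYN38, MCP28, YGG2, CYN26, Cre16.g652000, Cre03.g163400 and Cre07.g334150, which all fell.

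Without the replicate block, N− against Fe+ gave 1995 genes in place of 4588, with 24 members lower and 9 higher, and N− against Fe− gave 12 genes in place of 1750, with 0 members lower and 0 higher. Leaving out each Fe− or Fe+ library in turn without the block, chosen after seeing the data, gave 1451 to 2795 genes, 22 to 30 members lower and 6 to 14 higher for N− against Fe+, and 0 to 545 genes, 0 to 12 members lower and 0 to 2 higher for N− against Fe−. A lone sample is assumed there to vary like the others. DESeq2 gave 725 genes for N− against Fe−, with 5 members higher. TMM factors in place of total UMIs moved the members at least 2-fold lower to 66 for N− over Fe+ and to 10 for CC-4532 over CC-5390 in Fe+, and those at least 2-fold higher to 49 in Fe+ and to 62 in Fe− of the strains. The mean of ciliary UMIs per cell in N− over that in Fe+ of experiment 2 was -0.19 on the log2 scale, -0.057 at 500 UMIs per cell and 0.002 unthinned.

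Directions turned round for some values near 0. The members' median log2 ratio of N− over Fe+ was 0.18, but -0.12 against Fe+ of experiment 1, -0.094 with shares averaged over cells, -0.81 with TMM factors and -0.10 without the deepest 5% of cells. That of CC-4532 over CC-5390 in Fe+ was -0.13, and 0.70 with TMM factors. In the N− fit, RSP2 was at 0.73 without the block, 0.11 with N− R1 alone and 0.026 with DESeq2, MMP4 at -0.025 with N− R2 alone, and Cre16.g677650 at 0.003 without the block. In fits without the block that also left out a Fe− or Fe+ library, RSP2 ran from 0.15 to 1.79, Cre16.g677650 from -0.11 to 0.15, Cre16.g661000 from -1.19 to 0.57 and VSP3 from -0.15 to 0.71, and calls of PFH13, Cre13.g572600 and Cre03.g201500 were lost without Fe+ of experiment 2 (edgeR adjusted p = 0.0532, 0.0747 and 0.12) and that of Cre17.g697500 without Fe+ of experiment 1 or 2 (0.0678 and 0.0936). The cause was not tested. With the block, leaving out a Fe− or Fe+ library left no residual degrees of freedom and was not run.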
